A study of Mus musculus with 2 samples.

Results

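The Wnt ligands named here are Wnt3, Wnt4, Wnt5a, Wnt6, Wnt7a, Wnt7b, Wnt10a and Wnt11, and they were examined together with Wls, the membrane protein that carries Wnt proteins to the cell surface. These 9 genes, 8 ligands and 1 carrier, were chosen by symbol from the 31053 gene identifiers of the matrices, with earlier results of these data known. Transcripts were counted in single cells of organoids from normal mouse bladder, whose lining is the urothelium. Cells came from WT mice of the C57BL/6 strain aged 8 to 10 weeks. Proliferative (P) organoids were kept in complete medium, which contains WNT3A, RSPO1, EGF, Noggin and LY2157299, a TGF-β receptor inhibitor. Differentiated (D) organoids were moved from it to a medium without these 5 components. Organoids are grown in culture outside the bladder wall, and the presence of stromal, immune or vessel cells was examined only through the marker counts below. The number of mice behind each library was not given in the sources used here. Each condition was 1 library, so no difference below has a replicate check and no p-value was computed.

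Wnt proteins are secreted, lipid-modified ligands. The acyltransferase Porcn attaches a palmitoleate to a conserved serine, Wls then takes the modified protein through the secretory pathway, and Frizzled receptors with Lrp5 or Lrp6 receive it on the target cell. Wnt3, Wnt3a and Wnt10a are best known for stabilising β-catenin, and Wnt5a and Wnt11 for signalling without it. Basal cells, which lie on the basement membrane and express Krt5, renew the urothelium, and uroplakin-rich umbrella cells close it towards the lumen.

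The acylated serine lies in a stretch of coding sequence present in each of the 8 ligands, and it is shown because Wls recognises ligands that carry this lipid. The stretches were read on the coding strand, 5′ to 3′, from the GENCODE vM21 transcript with the longest coding sequence (GRCm38). Each is 24 bases long and lies within 1 exon, and capitals mark the serine codon.
Wnt4: tgtcacggggtgTCGggctcctgc
Wnt5a: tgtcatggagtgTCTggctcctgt
Wnt11: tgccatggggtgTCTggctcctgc
Wnt7a: tgccatggtgtgTCAggctcctgt
Wnt7b: tgtcacggtgtgTCAggctcctgt
Wnt10a: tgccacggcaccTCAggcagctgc
Wnt6: tgccatgggcttTCGggttcctgc
Wnt3: tgccacgggttgTCCggcagctgc
All 8 stretches differed in sequence, and 13 of 24 bases were identical in all of them. Of the 8 codons, 7 encoded the same residue in every ligand, while 4 different serine codons were used. The closest pair was Wnt7a with Wnt7b, which differed at 2 bases. The Wnt4 stretch lies at chr4:137296345-137296368 on the plus strand in exon 5, serine codon 212. The Wnt10a stretch lies at chr1:74803156-74803179 on the plus strand in exon 4, serine codon 268. The Wnt7a stretch lies at chr6:91366272-91366295 on the minus strand in exon 4, serine codon 206. The Wnt7b stretch lies at chr15:85537812-85537835, also on the minus strand, in exon 4, serine codon 213.

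Kept cells had over 800 detected genes and at most 12% of their unique molecular identifiers (UMIs, 1 per captured RNA molecule) from mitochondrial genes. They numbered 6818 in P, with 26681469 UMIs, and 4896 in D, with 20305621 UMIs. Levels are UMIs summed over kept cells and scaled to a total of 1000000 (CPM). Each UMI marks 1 transcript 3′ end, so levels were not divided by gene length, although capture may differ between genes. Intervals in brackets are exact at 95% and cover counting error only. The ribosomal protein share was 36.7% in P against 20.9% in D, summed early response genes stood at 1146 CPM and 2280.0 CPM, and 5.81% and 27.3% of all barcodes exceeded the mitochondrial limit. The part of these in the results was not tested. Over 8939 genes that reached 100 UMIs in both libraries the log2 ratio of D over P had a median of 0.42, so the members' ratios and the pathway counts are also given after removal of this shift. Only 6 barcode sequences were shared by kept cells of both libraries. Epithelial markers were abundant in both, with Krt5 at 3534 CPM in P and 3954 CPM in D. Of 6 fibroblast markers 3 were at 0 in P and 1 in D, and the summed list stood at 1.99 and 62.5 CPM. The latter was almost wholly Dcn (1234 UMIs in D, against 10 of Col1a1, 19 of Col3a1 and 0 of Col1a2). Smooth muscle markers summed to 3 and 4 UMIs, endothelial markers to 69 and 52, and erythroid markers to 0 in both. Leukocyte markers summed to 25 and 414 UMIs, of which Laptm5 gave 400 in D while Ptprc gave 2.

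Wnt4 was the leading ligand of both organoid types. Its level was 201 CPM in P (196 to 207) and 328 CPM in D (320 to 336), from 5371 and 6658 UMIs. It supplied 64.4% (63.3 to 65.4%) of the UMIs of all 19 Wnt genes in P and 66.7% (65.8 to 67.6%) in D. Wls, at 209 CPM in P (203 to 214) and 430 CPM in D (421 to 439), was the most abundant member in both, although its interval and that of Wnt4 overlapped in P. The 8 ligands together reached 297 CPM in P and 483 CPM in D, a log2 ratio of 0.70 (0.66 to 0.75), and of 0.28 after the shift was removed. For each ligand UMI there were 0.702 Wls UMIs in P and 0.889 in D.

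**Figure D1:**
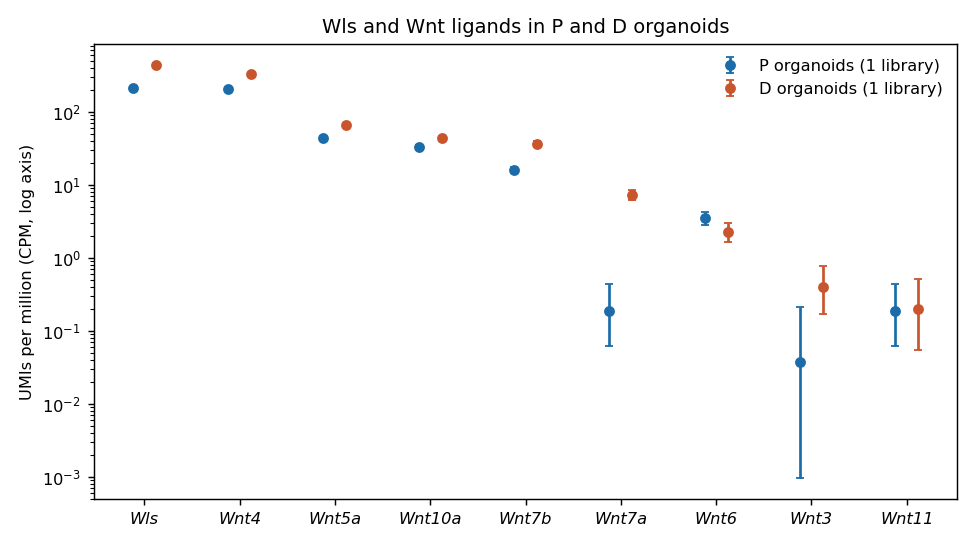
Levels of the 9 members in P and D organoids, as CPM on a log axis, with exact Poisson 95% intervals of counting error; each point is 1 library. Wls and Wnt4 lead in both, Wnt7a shows the widest separation (0.187 CPM in P, 7.24 CPM in D), and Wnt6 is the member with a lower level in D.

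The other ligands followed at lower levels. Wnt5a, at 43.0 CPM in P (40.5 to 45.6) and 66.2 CPM in D (62.7 to 69.9), ranked next in both. Wnt10a came behind it with 32.9 CPM (30.7 to 35.1) in P and 42.9 CPM (40.1 to 45.8) in D. Wnt7b then stood at 15.9 CPM (14.4 to 17.4) in P and 36.4 CPM (33.8 to 39.1) in D. From Wnt4 down to Wnt7b this order was the same in both libraries and no neighbouring ligands had overlapping intervals. The lowest tier differed. Wnt6 was counted 93 times in P and 45 times in D, which is 3.49 CPM (2.81 to 4.27) and 2.22 CPM (1.62 to 2.97). Wnt7a was counted 5 times in P and 147 times in D, which is 0.187 CPM (0.0608 to 0.437) and 7.24 CPM (6.12 to 8.51). Wnt3, with 1 and 8 UMIs, and Wnt11, with 5 and 4, lay near the floor of detection, which 3 UMIs set at 0.112 CPM in P and 0.148 CPM in D.

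The ligands differed in how much they separated the conditions. Of the 9 members, 7 held the minimum of 100 UMIs over both libraries, and 3 of these (Wnt7a, Wnt7b and Wls) were at least 2-fold higher in D, where 13.5% of all 10719 genes with that minimum were. Wnt7a, with 5 UMIs in P and 147 in D, reached the minimum only through D, so its count as higher in D follows from the filter. None of the 7 was at least 2-fold higher in P, against 4.73% of all genes. This holds for the members only. Wnt16, a Wnt gene outside the members with 232 UMIs in P and 8 in D, was 22.1-fold higher in P. The median log2 ratio of the 7 was 0.70, beside 0.41 over all genes counted. Without mitochondrial and ribosomal protein genes in the totals, or with the median shift removed, Wnt7a alone stayed at least 2-fold higher in D. With the shift removed, or without the cells that held a Dcn UMI, Wnt6 became at least 2-fold higher in P.

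Wnt7a had the largest ratio. Its level was 38.6-fold higher in D (16.2 to 120.7), a log2 ratio of 5.27 (4.02 to 6.92) and of 4.85 with the shift removed. Its 147 UMIs in D were spread over 130 cells, with at most 3 in any cell, so the ratio did not rest on a few cells. Its relative Wnt7b was 2.30-fold higher in D (2.03 to 2.59), a log2 ratio of 1.20 that became 0.78 with the shift removed. An annotated antisense gene, AU022754, overlaps Wnt7b and moved the same way, from 24 to 82 UMIs. Wls was 2.06-fold higher in D with an interval (1.99 to 2.13) that includes 2-fold, and its log2 ratio of 1.04 became 0.62 with the shift removed and 0.89 (0.84 to 0.94) without the cells that held a Dcn UMI, both under 2-fold.

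Wnt4 had a log2 ratio of 0.70 (0.65 to 0.76) and Wnt5a one of 0.62 (0.51 to 0.74), which became 0.28 and 0.20 with the shift removed. Both thus kept a higher level in D on either scale. The direction of Wnt10a did not hold. Its log2 ratio of 0.38 (0.25 to 0.52) became -0.038 with the shift removed, 0.06 without mitochondrial and ribosomal protein genes, and -0.11 without the cells that held a Dcn UMI. Wnt6 was the ligand with a lower level in D on all of these scales, with a log2 ratio of -0.65 (-1.20 to -0.12) and of -1.08 with the shift removed. Wnt3 was counted 10.5-fold more often (as CPM) in D, but from 1 and 8 UMIs, and the interval ran from 1.41 to 466 (log2 ratio 2.97 with the shift removed). Wnt11 had a ratio of 1.05 and an interval from 0.209 to 4.88 (log2 ratio -0.35 with the shift removed), so this depth showed no difference.

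The other 11 Wnt genes completed the repertoire with 5.06% of Wnt UMIs in P and 1.63% in D. Wnt16 was the main one in P, with 232 UMIs there and 8 in D, a level 22.1-fold higher in P (11.02 to 51.7), with a log2 ratio of -4.46 that became -4.89 with the shift removed. In P it thus outnumbered Wnt6, Wnt7a, Wnt3 and Wnt11, and in D it was outnumbered by Wnt7a and Wnt6. Wnt9a had 104 and 70 UMIs. Wnt3a, whose protein the complete medium supplied, had 64 and 19 UMIs with no more than 1 in any cell, and its level was 2.56-fold higher in P (1.52 to 4.53), with a log2 ratio of -1.36 that became -1.78. Wnt2 had 0 UMIs in P and 32 in D, 14.0-fold higher in D against a floor of 3 UMIs in the P library, and the exact interval of the ratio starts at 10.8-fold. Wnt5b had 5 and 19 UMIs, Wnt8a 13 and 5, Wnt10b 2 and 7, and Wnt2b 2 and 3. Wnt1, Wnt8b and Wnt9b were at 0 in both libraries, which allows up to 0.112 CPM in P and 0.148 CPM in D.

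To place the ligands among the cells, each library was clustered without the 19 Wnt genes and Wls among the variable features. A cluster was called basal-marker-high where at least 5 of 7 basal markers (Krt5, Krt14, Trp63, Itga6, Itgb4, Cd44 and Col17a1) exceeded the remaining cells. In P these were P1 (2563 cells, 5 of 7 markers) and P3 (355 cells, 6 of 7), and in D it was D1 (1318 cells, 6 of 7). None of the 3 clusters had a basal marker among its 10 leading genes. P3 was led by mitotic genes such as Ccna2, Hmmr and Nusap1, and D1 by Acta2, Cav1 and Htra1, with Wnt7a itself among its 10 leading genes. The remaining clusters were P0 (2648 cells, led by Sprr3, Cnfn and Rptn, with 9 of 9 intermediate, 8 of 9 squamous and 6 of 6 luminal markers raised), P2 (1252 cells), D0 (2790 cells) and D2 (788 cells, 8 of 9 intermediate, 4 of 9 squamous and 6 of 6 luminal markers raised). A marker counted as raised at any excess over the remaining cells. The 6 luminal markers summed to 37.6 CPM in P0 against 3709 CPM in D2, and Upk2, Upk3a and Krt20 had 7, 4 and 8 UMIs in all of P. Dcn accompanied the ligands in D, at 225.7 CPM in D1, 22.5 in D0 and 7.35 in D2, and its part in the results was not tested.

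Ligand transcripts were concentrated in the basal-marker-high clusters of both organoid types. In P, 5 members held at least 100 UMIs and 3 of them (Wnt4, Wnt5a and Wnt10a) were at least 2-fold higher there than in the other clusters, where 8.25% of 9486 genes were, and 0 were at least 2-fold lower, where 6.16% of genes were. In D, 6 members could be counted and 5 (Wnt4, Wnt5a, Wnt7a, Wnt10a and Wls) were at least 2-fold higher in D1, against 6.04% of 9398 genes, while 0 were at least 2-fold lower, against 6.8%. Wnt7a reached the minimum only through D1, with 126 UMIs there and 21 in the other clusters, so its count follows from the filter. At a clustering resolution of 0.4 the count in D became 3, since Wnt4 (log2 ratio 0.93) and Wnt5a (0.97) fell short. The median log2 ratio of the members counted was 1.11 in P and 1.30 in D, beside 0.15 and 0.11 over all genes counted. Because the members were chosen with earlier results of these data known, these counts and medians describe them and are not independent support.

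Wnt10a had the highest ratio of the members counted in P. Its level was 80.0 CPM in P1 (73.9 to 86.6) and 92.3 CPM in P3 (78.0 to 108), against 5.22 CPM in P0 and 8.90 CPM in P2. In D it was 175 CPM in D1 (163 to 189), against 10.7 CPM in D0 and 4.13 CPM in D2. The basal-marker-high clusters held 87.9% of Wnt10a UMIs in P, from 42.8% of the cells and 35.2% of all UMIs. In D they held 83.5%, from 26.9% of the cells and 20.4% of all UMIs. The level was 13.4-fold that of the other clusters in P (10.9 to 16.6), where the interval overlapped that of Wnt6 below, and 19.7-fold in D (16.4 to 23.7).

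Wnt7a had the steepest ratio in D, at 30.4 CPM in D1 (25.3 to 36.2), 1.36 CPM in D0 and 1.15 CPM in D2. D1 held 126 of its 147 UMIs, a level 23.4-fold that of the other clusters (14.7 to 39.1), and this interval overlapped that of Wnt10a. In P, 4 of its 5 UMIs fell in P1. Wnt6 followed the same clusters at low counts. It had 54 UMIs in P1 and 24 in P3, against 12 in P0 and 3 in P2, and 34 in D1 against 10 in D0 and 1 in D2. Its level was 9.58-fold higher on the basal-marker-high side in P (5.47 to 17.9) and 12.04-fold in D (5.96 to 26.3), and it did not reach the 100 UMIs needed for a count in either library. Wnt6 and Wnt10a are neighbours on the plus strand of chromosome 1 (74771892 to 74785322 and 74791516 to 74804179).

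**Figure D2:**
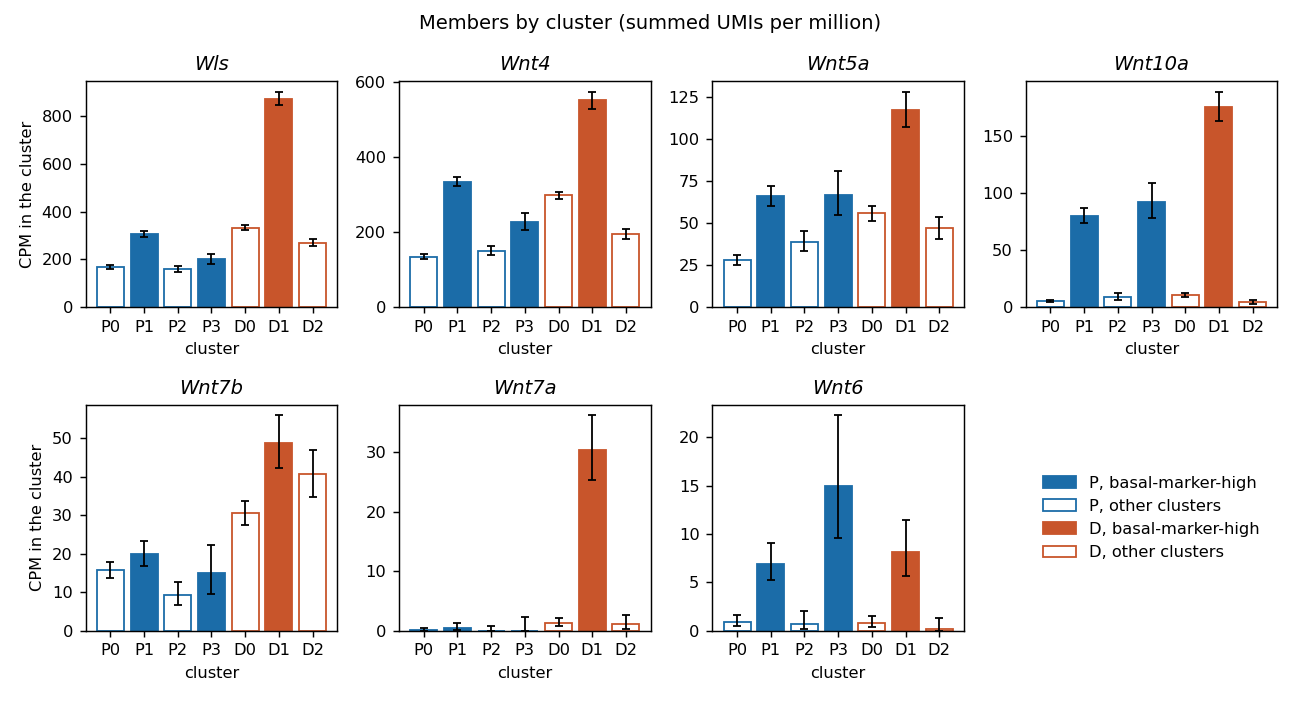
Levels of 7 members in each cluster, as CPM of the cluster, with exact Poisson 95% intervals; filled bars are basal-marker-high clusters and open bars the other clusters of the same library. Wnt10a, Wnt7a and Wnt6 reach their highest levels in filled bars and are low in open bars. Wnt4, Wnt5a, Wnt7b and Wls are less uneven across clusters, with their highest level in D1.

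Wnt4 and Wnt5a were broad, with a higher level in the basal-marker-high clusters. Wnt4 stood at 335 CPM in P1 and 228 CPM in P3, against 135 CPM in P0 and 150.4 CPM in P2. It stood at 551 CPM in D1, against 298 CPM in D0 and 196 CPM in D2. The ratio of both sides was 2.28 (2.16 to 2.41) in P and 2.04 (1.94 to 2.14) in D. For Wnt5a it was 2.16 (1.92 to 2.43) in P and 2.20 (1.96 to 2.46) in D, with levels from 27.8 CPM in P0 to 117 CPM in D1. Wnt7b was the most even of the better-counted ligands, with a 1.35-fold ratio in P (1.11 to 1.65) and a 1.47-fold ratio in D (1.24 to 1.73). Its level in the uroplakin-rich D2, 40.6 CPM (34.9 to 47.1), overlapped that of D1, 48.7 CPM (42.2 to 55.9). Wls was 1.73-fold higher on the basal-marker-high side in P (1.64 to 1.82) and 2.77-fold in D (2.65 to 2.89), and these intervals did not overlap. It reached 874 CPM in D1, against 333 CPM in D0 and 269.7 CPM in D2, while in P it ranged from 160.03 CPM in P2 to 304 CPM in P1.

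The make-up of the ligand UMIs changed between clusters with these levels. Wnt4 gave 73.1% of ligand UMIs in P0, 65.9% in P1, 71.97% in P2 and 54.6% in P3. It gave 75.0% in D0, 59.1% in D1 and 67.8% in D2. Wnt10a took up the difference in the basal-marker-high clusters, with 15.7% in P1, 22.1% in P3 and 18.8% in D1, against 4.26% or less elsewhere. Wnt7b had its largest part, 14.1%, in D2. P1 held 49.9% of all ligand UMIs of its library from 29.2% of the UMIs, and D1 39.4% from 20.4%.

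**Figure D3:**
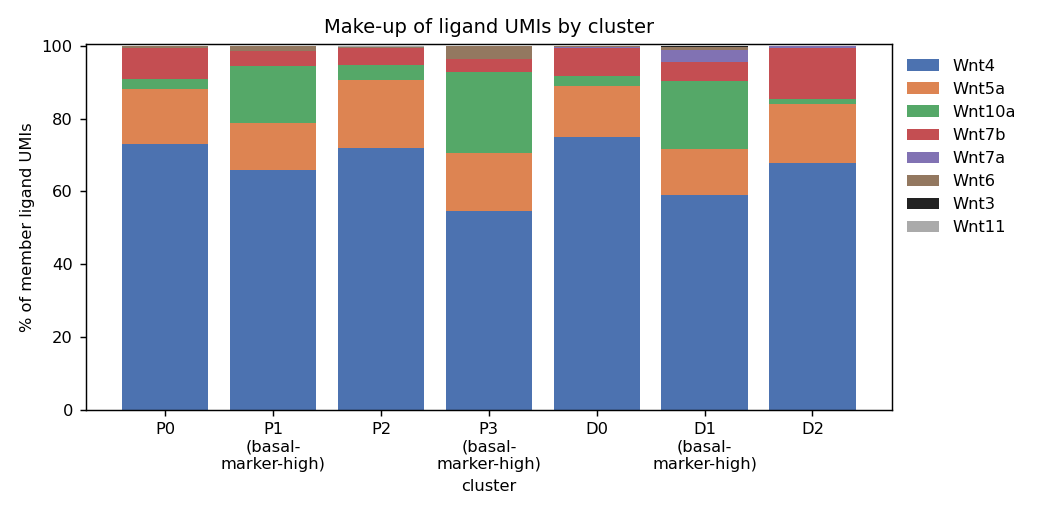
Share of each ligand among the UMIs of the 8 member ligands, by cluster (P0 to P3, D0 to D2); bars add to 100%. Wnt4 has the largest share in each cluster, while Wnt10a reaches its highest shares in P1, P3 and D1 and Wnt7b in D2.

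The largest basal-marker-high cluster of each library, P1 and D1, was also compared directly, by cluster number. Wnt7a was at 0.514 CPM in P1 and 30.4 CPM in D1, a 59.1-fold ratio (22.5 to 220.3). With the median shift of the whole libraries removed, the log2 ratios of D1 over P1 were 5.46 for Wnt7a, 1.10 for Wls, 0.87 for Wnt7b, 0.41 for Wnt5a, 0.30 for Wnt4 and -0.18 for Wnt6. Wls was 2.87-fold higher in D1 (2.72 to 3.02) and Wnt7b 2.45-fold (1.97 to 3.04). Wnt10a had a log2 ratio of 1.13 (0.97 to 1.29), which was 0.71 with that shift removed, whereas its ratio over whole libraries did not keep its direction. Wnt4 and Wnt5a had ratios of 1.65 and 1.78. Wnt6, which was lower in D over the whole library, had 54 and 34 UMIs in P1 and D1, a ratio of 1.18 whose interval (0.746 to 1.85) includes equality. The 2 clusters differ in their leading genes, and median UMIs per cell were 2835 in P1 and 2677.5 in D1.

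Shares of cells were taken after each cell had been thinned to 2100 UMIs, which left 6638 cells in P and 4417 in D and set aside 180 and 479 shallower ones. The loss was uneven in D, where 1043 of 1318 cells of D1 stayed, 2603 of 2790 of D0 and 771 of 788 of D2. Shares over the whole D library thus give D1 less weight than it has among kept cells. A Wnt4 UMI was found in 31.9% of cells in P (30.8 to 33.1%) and 46.0% in D (44.5 to 47.5%). Wls was found in 35.2% (34.1 to 36.4%) and 54.9% (53.4 to 56.4%). Wnt5a was found in 9.11% and 13.1% of cells, Wnt10a in 6.64% and 8.49%, Wnt7b in 3.27% and 7.77%, Wnt6 in 0.723% and 0.566%, and Wnt7a in 0.0151% and 1.56%. Unthinned, the shares were 46.7% and 62.2% for Wnt4, 51.7% and 71.9% for Wls and 10.3% and 12.9% for Wnt10a. No cell type known to lack these ligands was present as a reference for free RNA. The share of Wnt10a-positive cells was 0.646% in P0 and 14.3% in P1, and 0.649% in D2 and 31.0% in D1, at median depths of 4198, 2835, 4486 and 2677.5 UMIs before thinning.

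At least 1 of the 8 ligands was detected in 43.0% of P cells (41.8 to 44.2%) and 58.6% of D cells (57.1 to 60.03%). At least 2 were detected in 7.92% (7.29 to 8.60%) and 15.8% (14.7 to 16.9%), and at least 3 in 0.783% and 3.03%. Unthinned, 59.5% and 74.4% of cells had at least 1 ligand, and 16.9% and 29.7% at least 2. Thinning equalised total UMIs only. The ribosomal protein shares of 36.7% in P and 20.9% in D, and the median log2 shift of 0.42, remain in all shares of cells compared between P and D. Their part in these differences was not tested. Cells with 2 or more ligands were most frequent in the basal-marker-high clusters. They made up 15.7% of P1, 11.1% of P3 and 40.5% of D1, against 2.62% of P0, 2.92% of P2, 8.22% of D0 and 7.78% of D2. In D1, 83.9% of cells had at least 1 ligand and 11.03% at least 3.

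Most ligand-positive cells showed Wnt4 alone, which accounted for 24.8% of all P cells and 31.7% of all D cells. Wnt5a alone followed with 5.32% and 5.25%. The commonest combinations were Wnt4 with Wnt5a, in 180 cells of P and 218 of D, and Wnt4 with Wnt10a, in 167 and 153. The commonest triple was Wnt4 with Wnt5a and Wnt10a, in 27 cells of P and 41 of D. Among the 69 Wnt7a-positive thinned cells of D, 8 had Wnt7a as their only ligand.

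Wls was found more often in cells with more ligands. In P it was present in 33.0% of cells with no ligand (31.5 to 34.6%), 36.7% of those with 1 (34.7 to 38.7%), 44.3% with 2 (39.8 to 48.9%) and 50.0% with 3 (35.5 to 64.5%). In D the shares were 48.8% (46.5 to 51.1%), 55.8% (53.6 to 58.1%), 66.2% (62.1 to 70.1%) and 75.4% (66.8 to 82.8%). Neighbouring intervals overlapped between 2 and 3 ligands in both libraries but not between 1 and 2. Cells of 1 library are not replicates, so these intervals describe the library. The trend was not taken within clusters, and the part of cluster make-up in it was not tested. Wls was in 82.2% of cells of D1, where cells with 2 or more ligands were most frequent, against 47.3% of D0 and 43.5% of D2. In P it was in 45.3% of P1 and 33.4% of P3, against 29.2% of P0 and 28.7% of P2.

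**Figure D4:**
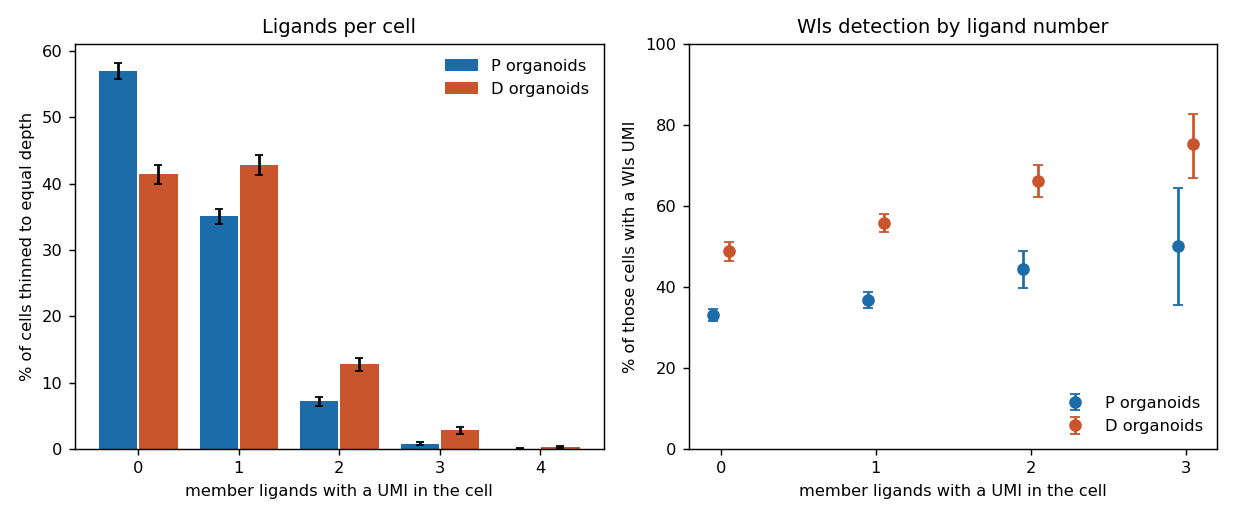
Left, percent of cells with 0 to 4 member ligands detected after thinning to 2100 UMIs; right, percent of those cells with a Wls UMI, by number of ligands from 0 to 3. Bars and points carry exact binomial 95% intervals. D organoids have fewer cells with none (41.4% against 57.0%) and a higher Wls share at each number of ligands. Both panels use whole libraries, not clusters, and the median shift between the libraries is not removed.

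Co-detection was compared with the number of cells that the product of both shares gives. Of the ligand pairs for which this product was at least 5 cells (7 in P, 11 in D), the interval lay above the product for 1 pair in P and 6 in D, and below it for 0 in both. Wnt4 with Wnt10a was found together in 208 cells of P, 1.48 times the product (1.28 to 1.69), and in 240 cells of D, 1.39 times (1.22 to 1.58). When the product was taken within each cluster and summed, the ratios were 1.16 (1.005 to 1.33) and 1.04 (0.915 to 1.18). In D, Wnt7a with Wnt10a was found in 23 cells, 3.93 times the product (2.49 to 5.89) and 1.16 times within clusters (0.732 to 1.73). Wnt5a with Wnt10a was found there in 75 cells, 1.53 times the product and 0.986 times within clusters.

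Wnt7a with Wnt7b was the pair of D whose interval lay above 1 also within clusters. It was found in 15 cells, 2.80 times the product (1.57 to 4.62) and 2.18 times within clusters (1.22 to 3.59). A Wnt7b UMI was thus present in 21.7% of Wnt7a-positive cells, against 7.54% of the others. Only 1 further pair, Wnt4 with Wnt10a in P, had an interval above 1 within clusters, and with a second random draw of the thinning 3 pairs of P exceeded the product in place of 1. Of the pairs with a product of at least 5 cells, Wnt5a with Wnt7b had the lowest ratios, 0.860 in P (0.501 to 1.38) and 0.891 in D (0.637 to 1.21), both with intervals that include 1.

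Wls was detected in 44.2% of Wnt10a-positive cells of P and 34.6% of the others, and in 82.1% and 52.4% in D. Wnt10a with Wls was 1.25 times the product in P (1.08 to 1.44) and 1.497 times in D (1.33 to 1.67), but 1.04 and 1.06 within clusters, with intervals that include 1. Wnt4 with Wls was 1.09 and 1.08 times the product, and 1.02 in both libraries within clusters.

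**Figure D5:**
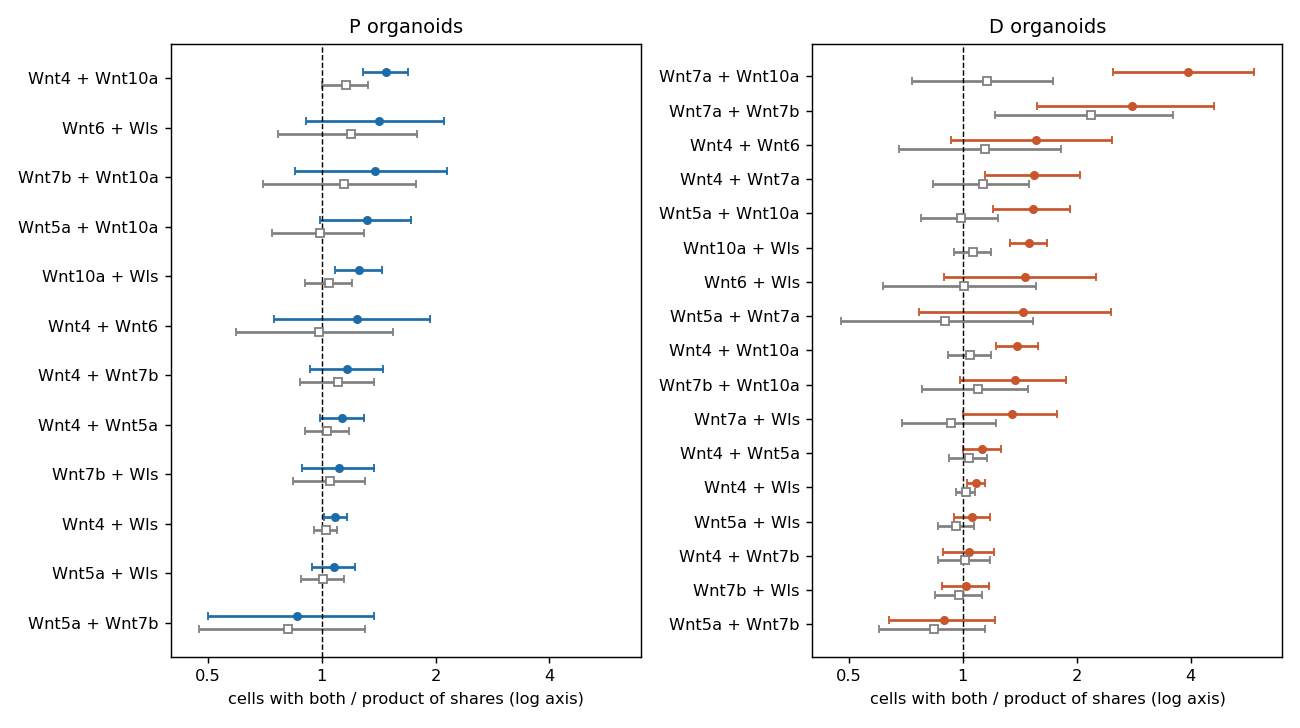
Cells with both members of a pair, divided by the product of their shares, on a log axis, for pairs whose product was at least 5 cells; coloured circles use whole libraries, open squares the product within clusters, and bars are exact Poisson 95% intervals. The dashed line is a ratio of 1. Squares lie nearer to the line than circles for Wnt7a with Wnt10a in D, and stay above it for Wnt7a with Wnt7b.

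Cell states gave a further view of the ligands. Wnt10a was found in 52 of 330 cycling cells of P (15.8%), defined by at least 2 of 12 proliferation genes, and in 6.17% of the others (5.59 to 6.79%). Wnt4 was found in 36.4% and 31.7% of them, Wnt5a in 12.1% and 8.96%, and Wls in 32.7% and 35.4%, all with overlapping intervals. By cluster, Wnt10a was found in 14.3% of P1 cells (12.9 to 15.8%) and 15.5% of cells of the mitotic P3 (11.9 to 19.8%), with overlapping intervals. Its shares in P0 and P2 were 0.646% and 1.87%. Cycling and other cells were not compared within clusters, so the part of cluster make-up in the Wnt10a shares was not tested. In D only 15 thinned cells were cycling. The uroplakins are membrane proteins of umbrella cells, and in D 2340 cells held a uroplakin UMI. Wnt10a was found in 2.61% of these and 15.1% of the others, Wnt7a in 0.513% and 2.74%, Wnt4 in 38.6% and 54.4%, and Wls in 46.7% and 64.1%. Wnt7b was found in 7.14% (6.13 to 8.26%) and 8.47% (7.31 to 9.75%), with overlapping intervals. Within D1, the 293 cells with a Dcn UMI and the 750 without it had overlapping intervals for each of the better-counted members, with Wnt4 in 65.2% and 64.3%, Wnt10a in 35.5% and 29.2%, Wnt7a in 4.78% and 6.67% and Wls in 86.3% and 80.5%. Over the whole D library Wnt10a was found in 28.9% of Dcn-positive cells and 6.56% of the others. Every thinned cell of D and 6635 of 6638 in P held an epithelial marker UMI. The 7 markers of that list summed to 7088 CPM in P and 9946 CPM in D. At such levels 1 UMI is likely in almost any cell, free RNA included, so this count cannot tell cell types apart.

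Of the genes detected in at least 2% of thinned cells in both libraries (6693 genes), those most enriched in member-positive cells were ranked by the lower of the 2 libraries' ratios. In Wnt10a-positive cells they were Sema3d (3.09-fold in P, 3.23-fold in D), Smoc2 (3.05 and 4.19) and Col7a1 (2.90 and 4.30). In Wnt4-positive cells they were Col7a1 (2.07 and 2.29), Wnt10a itself (1.90 and 2.09) and Smoc2 (1.85 and 1.93). Wls-positive cells were enriched for Smoc2 (2.23 and 4.32), Ctnnal1 (2.03 and 4.08) and Nbl1 (1.96 and 2.83). Col7a1 encodes the anchoring fibril collagen of the basement membrane and Sema3d a secreted semaphorin. For Wnt5a the leading genes were Gpatch4 (2.45 and 1.998), Sema3d (1.92 and 1.81) and Rgs10 (1.71 and 1.82), and for Wnt7b Dscr3 (1.76 and 2.08), Ttc19 (1.91 and 1.73) and Ip6k1 (2.01 and 1.71). These lists are the highest of 6693 ranked genes, no interval was taken, and the part of counting error was not tested. Some rest on few cells, such as Dscr3 in 5.53% of the 217 Wnt7b-positive cells of P, against 3.15% of the others. All these partner ratios are descriptions over cells of 1 library each. They were taken over whole libraries and not within clusters. Smoc2 was among the 10 leading genes of D1 and Nbl1 among those of P1, and the part of cluster membership in the ratios was not tested.

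The machinery around the ligands was read from lists of pathway genes, as the number of genes that differed 2-fold or more in CPM, against the same background of 13.5% higher in D and 4.73% higher in P. Of 9 secretion and processing genes, 7 could be counted and 0 passed in either direction on either scale, with a median log2 ratio of 0.49 that became 0.069 with the shift removed. Porcn had 276 UMIs in P and 178 in D, a log2 ratio of -0.24 (-0.52 to 0.038), and of -0.66 with the shift removed. The glypican Gpc4 stood highest at 0.96 (0.53 with the shift removed) and Tmed5, a cargo receptor of the early secretory pathway, next at 0.82 (0.39). Of 16 receptors, 14 could be counted, and 5 were higher in D and 0 in P, with a median of 0.55. With the shift removed 4 were higher in D and 0 in P, and the median was 0.13. The largest ratios were those of Fzd3 (2.06, 1.64 with the shift removed), Fzd2 (1.72, 1.30) and Fzd6 (1.67, 1.25). Of 9 genes of the R-spondin arm, 3 could be counted, among them the receptor Lgr4, at 17.0 CPM in P and 81.8 CPM in D (log2 ratio 2.27, 1.85 with the shift removed). By a choice made after the values were seen, the R-spondin ligands are named too. Rspo1, Rspo3 and Rspo4 were at 0 in both libraries, and Rspo2 had 8 and 2 UMIs. No secreted antagonist of 10 reached 100 UMIs, and 5 were at 0 in both. Of 17 β-catenin transducers and targets, 12 could be counted, and Mmp7 (2.66), Tcf7l1 (1.20) and Apc (1.19) passed towards D, Ccnd1 (-2.53) and Myc (-1.44) towards P. With the shift removed Mmp7 (2.24) alone passed towards D, since Tcf7l1 (0.78) and Apc (0.77) fell short, while Ccnd1 (-2.95) and Myc (-1.87) passed towards P. Axin2, a direct target of β-catenin that was also named after its values were seen, had 90 and 76 UMIs (log2 ratio 0.15, -0.31 to 0.61, and -0.27 with the shift removed). Under the minimum, Tcf7 had 45 and 17 UMIs (-1.01, -1.91 to -0.18), Nkd2 14 and 5, Sp5 2 and 0, Lef1 1 and 1, and Nkd1 0 in both. Notum, of the secretion list, had 41 and 2 (-3.96, -7.06 to -2.02), while Gpc3 of that list had 1 and 18. These genes too were named after their values were seen.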

How the data were processed

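Single-cell 3′ RNA libraries (10x Genomics, version 3 chemistry) of P and D organoids were analysed, 1 library each. The deposited matrices hold raw UMI counts per gene and barcode, which the authors made with bcl2fastq 2.19.0 and Cell Ranger 3.0.2 on GRCm38 (mm10), per the submitters' processing notes.

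Kept cells had over 800 genes and at most 12% mitochondrial UMIs. UMIs were summed per library or cluster and given as CPM with exact Poisson intervals. Ratios have exact conditional binomial intervals and shares Clopper-Pearson intervals, all at 95%. With 1 library per group no test was run. A gene needed 100 UMIs over both libraries (or both sides of a cluster contrast) to enter a count at 2-fold. A count of 0 was given a floor of 3 UMIs. Cells were thinned to 2100 UMIs for shares. Clusters were rebuilt with Seurat 5.3.0 (R 4.3.3; 2000 variable features, without the Wnt genes and Wls; 25 components in P and 21 in D; resolution 0.2), since no cell annotation was used here. No doublet caller was run, and an alternative left out the 5% of cells with most UMIs (341 in P, 245 in D). Other steps used Python 3.11.15, pandas 2.3.3 and scipy 1.17.1, and the interval functions were tested on simulated data.

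Members, pathway lists, markers and tests were chosen with earlier results of these data known. Named genes were the members, the other Wnt genes, up to 3 pathway genes per list and direction with the largest log2 ratio, and the 3 most enriched partner genes per member. Antisense genes overlap Wnt5a, Wnt6 and Wnt7b.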

Additional observations from a re-analysis of the deposited data

Results flagged for a closer look

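The barcodes left out by the cell filter also held transcripts of these genes and enter no comparison above. In P the 1376 left-out barcodes held 722 UMIs of the 8 ligands and 528 of Wls. In D the 2079 left-out barcodes held 1015 ligand UMIs and 1520 Wls UMIs. Per 1000000 non-mitochondrial UMIs the ligands stood at 362 in left-out and 316 in kept barcodes of P, and at 489.9 and 521 in those of D. Wls stood at 265 and 222 in P, but at 734 (697 to 771) and 463 (453 to 473) in D, a log2 ratio of 0.66 (0.59 to 0.74). These barcodes have few genes or many mitochondrial UMIs by selection, and the part of either in these levels was not tested.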

How the results depend on the processing

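Each value under an alternative setting was called kept if it lay within the main interval. Counts were called kept within a set fold of the main count, so a change from 3 to 2 members is included. Shares of cells and counts could not be called reversed. By this rule 50 values of the main results were kept and 31 moved. Of the values of single members and pairs 118 were kept, 24 moved and 2 reversed. Without mitochondrial and ribosomal protein genes the log2 ratio of summed ligands was 0.38, with median-ratio scaling 0.28, with the stricter cell filter (over 1000 genes, at most 10% mitochondrial UMIs) 0.76 and with all barcodes 0.66. Either of the first 2 scalings left 1 member (Wnt7a) at least 2-fold higher in D, and median-ratio scaling put 1 (Wnt6) at least 2-fold higher in P and turned Wnt10a to -0.038. Without the cells holding a Dcn UMI (34 in P, 657 in D), an alternative chosen after seeing the data, the summed log2 ratio was 0.54, Wnt10a was at -0.11, 2 members were at least 2-fold higher in D in place of 3 (Wls fell short at 0.89), 1 member (Wnt6) was at least 2-fold higher in P, and the D shares of cells with at least 1 and 2 ligands were 55.4% and 12.9%. Cells with at least 1 ligand were 41.1% in P under the stricter filter and 56.7% in D over all barcodes. Thinned to 1500 UMIs, shares with at least 1 ligand were 35.1% (P) and 48.3% (D), and with at least 2, 5.03% and 10.1%. Thinned to 3000 they were 50.1%, 66.4%, 11.04% and 20.01%, and not thinned 59.5%, 74.4%, 16.9% and 29.7%. Pairs of P with an interval above 1 were 2 at 1500 and at 3000 UMIs, 5 not thinned and 3 with a second seed, and those of D 12 not thinned. At a resolution of 0.4 the basal-marker-high side of D had 2027 cells in place of 1318, and 3 members were at least 2-fold higher. The cause of these moves was not tested, except that thinning sets the depth per cell. No paired analysis was possible because each condition is 1 library. Depth limits Wnt3 and Wnt11, with under 10 UMIs in each library.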

Other observations

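Among the other Wnt genes, Wnt3a transcripts of P also lay mainly in the basal-marker-high clusters, with 58 of 64 UMIs there, a level 17.8-fold that of the other clusters (7.71 to 50.5). In D these clusters held 12 of 19. Wnt16 in P was broader, with 141 of 232 UMIs on that side and a 2.85-fold higher level (2.18 to 3.76), and its level in P2, 15.2 CPM, overlapped that in P1, 14.0 CPM. Wnt9a was even, with a ratio of 1.30 in P (interval 0.858 to 1.95) and of 1.45 in D (interval 0.809 to 2.50). Wnt2, at 0 in P, had 20 of its 32 UMIs of D in D1, 6.49-fold the level of the other clusters (3.02 to 14.6). These genes were described after their values were seen.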
